A study of Mus musculus with 14 samples.

Results

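The genes described here are those by which cells make cholesterol and fatty acids, together with the genes that control that synthesis and those that limit cholesterol by export or by reduced uptake. They comprise 34 genes chosen by name, of 53278 genes listed for the group 2 innate lymphoid cells (ILC2s) of the mouse lung, and all 34 were found in both the count table and the TPM table of each experiment, where TPM is a transcript level scaled for gene length and depth. By role, 7 act in the mevalonate pathway, 11 in the conversion of its product to sterols, 6 in fatty acid synthesis and desaturation, 5 in the control of SREBP, 1 in sterol transport inside the cell, 3 are LXR targets grouped as efflux genes (the exporters Abca1 and Abcg1, and Mylip, which limits uptake) and 1 is the nuclear receptor LXRβ. Of these, 26 are known targets of SREBP and are described as a set beside the efflux genes Abca1, Abcg1 and Mylip.

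RNA sequencing was performed on ILC2s sorted from lungs of individual female mice as live, lineage-, CD90.2+ and CD3- cells and cultured in complete RPMI. In the first experiment, 4 B6 mice gave cells cultured for 24 hours with 20 ng/mL IL-33, and the other 4 of the 8 B6 mice gave cells left unstimulated, which the design text describes both as cultured for the same time without IL-33 and as ex vivo. In the second, 3 age-matched Blimp-1IL7RaCre mice, in which a floxed Prdm1 gene is deleted by Cre expressed from the Il7r locus, were compared with 3 ControlIL7RaCre mice, and the cells of both groups received 20 ng/mL IL-33 and 20 ng/mL IL-25 for 72 hours. The study's methods add IL-2 to that culture, and the labels do not. This Cre acts in all ILC subsets and in T, B and NK cells, so the mice lacked Blimp-1 in cells other than ILC2s before the sort. All mice were over 6 weeks of age.

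Cells sense sterols in the endoplasmic reticulum. When sterols are low, SCAP escorts the SREBP transcription factors (encoded by Srebf1 and Srebf2) to the Golgi, where they are cleaved and released to switch on the genes of sterol and fatty acid synthesis, and when sterols are high, the INSIG proteins hold SCAP and SREBP back. LXR works in the opposite direction: oxysterols activate it, and it switches on the exporters ABCA1 and ABCG1 and the ubiquitin ligase encoded by Mylip, which limits lipoprotein uptake. In lymphocytes, sterol synthesis is known to accompany growth and division after activation.

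Total counts ran from 21939818 to 32791051 in the unstimulated libraries, from 10470125 to 32849428 after IL-33, and from 13570188 to 76448945 in the libraries of the Blimp-1 comparison. The 2 shallowest libraries also stood apart in content. In IL-33 stimulated replicate 3, with 10470125 counts, the macrophage gene Csf1r reached 27.2 CPM (counts scaled to a common library size). It was at 0.486 to 2.17 CPM in the other 3 stimulated and 1.00 to 3.33 CPM in the unstimulated libraries. The 11 macrophage and myeloid markers as a whole did not follow Csf1r. They summed to 163 to 463 CPM in the other libraries of that experiment and to 299 CPM in replicate 3. The fibroblast gene Col1a1 reached 237 CPM there, against 55.7 to 67.7 CPM in the other stimulated libraries, but lay inside the 153 to 297 CPM of the unstimulated ones, and Col1a2, at 51.4 CPM, lay inside the 41.7 to 56.8 CPM of the other stimulated libraries. In Control replicate 2, with 13570188 counts, 1 gene took 41.6% of all counts and Col1a1 reached 2171 CPM, against 48.1 to 268 CPM in the other 5 libraries of that experiment, although on the TPM scale it was 35.9 against 27.5 to 159. Hmgcs1, for example, had 271 counts and 1.56 TPM in Control replicate 2, against 5455 to 9347 counts and 61.4 to 84.0 TPM in the other 5 libraries, so its CPM there rests on the scaling to the other genes. Counts of calls in each comparison are therefore given with all libraries and again without the library concerned, as are the fold changes of most of the 34 genes. All 10 ILC2 markers were detected in all 14 libraries, with summed levels of 6135 to 43589 CPM. Prdm1, the targeted gene, stood at 75.2, 92.8 and 74.0 CPM in the Control libraries and at 14.6, 11.5 and 11.4 CPM in the Blimp-1-deficient libraries (log2 fold change -2.68 ± 0.15 (SE), edgeR adjusted p = 0.00441).

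To show the regulatory sequence behind these genes, the 250 bases before the start site are printed for 7 members, from the RefSeq promoter table on GRCm38.p6, which held 27 of the 34 members (not Fdps, Fdft1, Sqle, Scd1, Scd2, Stard4 and Abcg1). Hmgcs1 is shown because it alone among the 27 held the sterol regulatory element searched, Idi1 as the SREBP target with the largest called rise after IL-33 among those with an entry, Insig1 because it rose under every setting tried, Dhcr7 and Mylip as the SREBP target and the efflux gene with the largest called fall after IL-33, and Lss and Abca1 because they fell without Blimp-1. The windows lie at chr13:119690101-119690350, chr13:8885356-8885605, chr5:28071162-28071411, chr7:143829964-143830213, chr10:76531355-76531604 and chr13:45389492-45389741 on the plus strand and at chr4:53159896-53160145 on the minus strand. Dhcr7 has 3 windows in the table, and the last along the chromosome is shown. Capitals mark matches, on either strand, to the SREBP element TCACNCCAC, to the E-box CACGTG or to the CCAAT box, whose reverse complement reads ATTGG, and no match overlaps another:
Hmgcs1: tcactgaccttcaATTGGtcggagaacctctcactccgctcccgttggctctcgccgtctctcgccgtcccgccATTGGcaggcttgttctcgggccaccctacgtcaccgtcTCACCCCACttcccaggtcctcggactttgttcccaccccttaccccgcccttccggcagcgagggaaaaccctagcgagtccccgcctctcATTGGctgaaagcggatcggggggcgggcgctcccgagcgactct
Idi1: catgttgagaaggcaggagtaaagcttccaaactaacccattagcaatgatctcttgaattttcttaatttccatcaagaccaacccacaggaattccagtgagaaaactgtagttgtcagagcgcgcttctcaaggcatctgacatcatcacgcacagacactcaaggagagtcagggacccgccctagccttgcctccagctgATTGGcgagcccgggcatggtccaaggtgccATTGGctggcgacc
Insig1: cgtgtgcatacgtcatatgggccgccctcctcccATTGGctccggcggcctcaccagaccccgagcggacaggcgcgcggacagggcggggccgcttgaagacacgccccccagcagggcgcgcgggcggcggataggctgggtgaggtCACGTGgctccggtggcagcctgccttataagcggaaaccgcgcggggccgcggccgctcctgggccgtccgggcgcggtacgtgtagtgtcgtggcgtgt
Dhcr7: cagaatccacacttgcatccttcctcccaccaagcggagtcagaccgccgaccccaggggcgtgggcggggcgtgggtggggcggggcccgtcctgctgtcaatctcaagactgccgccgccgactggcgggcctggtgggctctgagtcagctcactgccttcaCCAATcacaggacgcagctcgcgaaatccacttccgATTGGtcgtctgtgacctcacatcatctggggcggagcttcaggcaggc
Lss: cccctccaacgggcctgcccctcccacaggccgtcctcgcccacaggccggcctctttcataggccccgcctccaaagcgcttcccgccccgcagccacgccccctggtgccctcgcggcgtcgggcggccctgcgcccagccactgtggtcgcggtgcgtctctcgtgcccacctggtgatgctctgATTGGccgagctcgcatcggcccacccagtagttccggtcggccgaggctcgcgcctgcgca
Mylip: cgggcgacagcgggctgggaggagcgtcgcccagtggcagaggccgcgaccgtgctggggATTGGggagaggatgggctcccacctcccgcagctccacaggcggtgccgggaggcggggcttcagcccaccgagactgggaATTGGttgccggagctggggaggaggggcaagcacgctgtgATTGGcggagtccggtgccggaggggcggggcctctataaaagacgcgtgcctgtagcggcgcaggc
Abca1: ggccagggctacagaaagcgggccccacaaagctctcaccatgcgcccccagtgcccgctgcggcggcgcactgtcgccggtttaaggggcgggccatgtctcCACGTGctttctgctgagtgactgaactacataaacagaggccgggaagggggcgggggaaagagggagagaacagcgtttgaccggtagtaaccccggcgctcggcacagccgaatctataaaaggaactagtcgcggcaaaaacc

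CCAAT, the box bound by NF-Y, which is known to act beside SREBP, was found in all the windows shown except that of Abca1. Within the full windows of 300 bases, which add 50 bases after the start, it was found in 17 of the 20 SREBP targets with a promoter entry (85%), against 41.1% of 27025 genes. The SREBP element TCACNCCAC was found in Hmgcs1 alone, 137 to 129 bases before the start, against 1.44% of all genes. The E-box stood in 4 of the 20 targets (Dhcr7, Hsd17b7, Insig1 and Sc5d), in the window of Dhcr7 that is not shown, and also in Scap and Abca1, against 8.09% of all genes. The LXR element DR4, AGGTCA repeated after a spacer of 4 letters, was in 0 of the 27 members and in 0.0148% of all genes, which says only that these letters are not in these windows. A match is a description of sequence and no evidence of binding.

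Before stimulation, the genes of both pathways were expressed over a range of more than 100-fold in level per transcript length. Among the unstimulated libraries, Srebf2 was the highest of the 34 at 288 ± 6.82 TPM (SD, n = 4), followed by Acly, which makes cytosolic acetyl-CoA from citrate, at 240.1 ± 9.90 TPM and Fasn, the fatty acid synthase, at 157 ± 11.2 TPM. Srebf1 stood at 105 ± 6.04 TPM. At the low end were Tm7sf2, a sterol reductase, at 3.45 ± 0.747 TPM, Scd1, a fatty acid desaturase, at 2.28 ± 0.744 TPM and Abca1 at 1.94 ± 0.393 TPM. The first 3 genes were separated by more than their SDs, whereas Cyp51 at 113 ± 2.22 TPM and Ebp at 113 ± 5.37 TPM, and likewise Scd1 and Abca1, were closer than their SDs. The related desaturase Scd2, whose gene lies beside Scd1 on chromosome 19 (44293674 to 44306864, plus strand, and 44394455 to 44407879, minus strand), was at 102 ± 11.8 TPM.

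**Figure D1:**
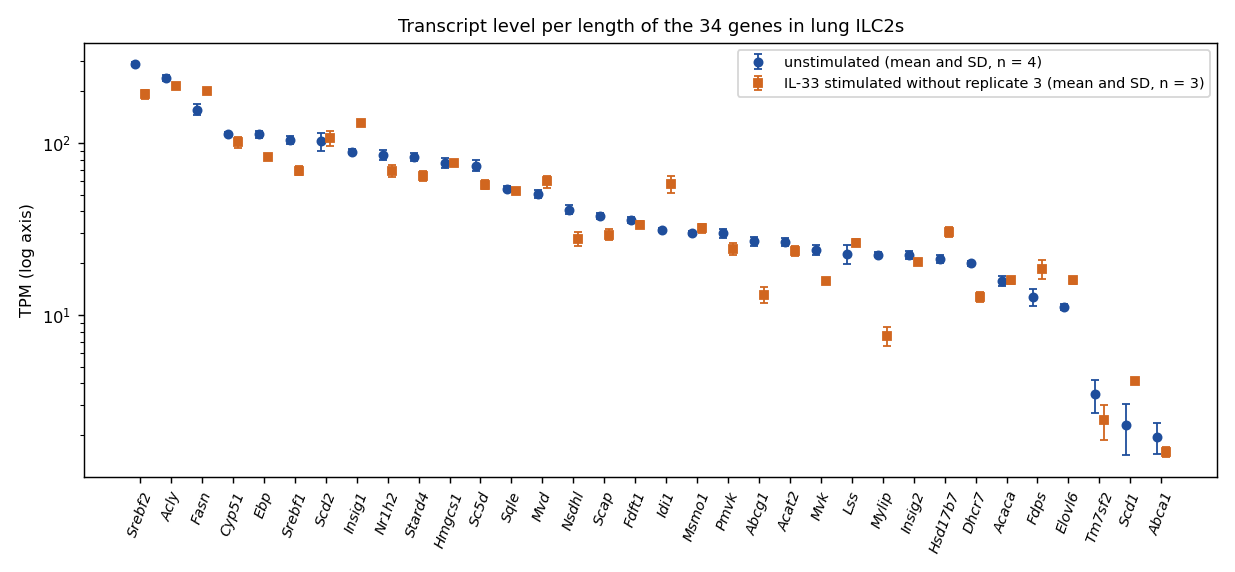
Level of the 34 genes in TPM on a log axis, as the mean and SD of the 4 unstimulated libraries (circles) and of the 3 stimulated libraries without replicate 3 (squares), ordered by the unstimulated level. Srebf2 is highest at 288 ± 6.82 TPM and Abca1 lowest at 1.94 ± 0.393 TPM, and the squares of Idi1, Hsd17b7, Elovl6 and Scd1 lie above the circles while those of Mylip and Abcg1 lie below.

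The first comparison set cells after 24 hours with IL-33 against unstimulated cells. Synthesis genes moved in both directions, with more rising than falling, and Mylip was the efflux gene called, lower, with all libraries. Of the 34 members, 9 were called higher after IL-33 at an edgeR adjusted p below 0.05, against 16.2% of 15466 genes tested, and 4 were called lower, against 16.1%. All 9 that rose were SREBP targets. The balance depended on the scale: with library size alone 6 members were higher, against 11.7% of all genes, and 8 lower, against 23.9%, and by limma on log2(TPM + 1) 3 were higher, against 6.80% of 15171 genes, and 12 lower, against 30.7%, so the 12 lower were near that background. These are scales on which the median of all genes lay 0.16 and 0.31 further down in log2. Without stimulated replicate 3, 17 members were higher, against 27.5% of 15733 genes, and 7 were lower, against 29.7%. The groups did not overlap in CPM for 10 members that were higher, against 17.0% of genes tested, and for 6 that were lower, against 20.9%. The median log2 fold change of the 26 SREBP targets was 0.21, beside 0.058 over all genes tested, and 0.29 beside -0.055 without stimulated replicate 3. As these are bulk samples, a change in the make-up of the sorted cells and a change of RNA within each cell cannot be told apart. The unstimulated cells are described both as cultured and as ex vivo. If they were ex vivo, the effects of IL-33 and of 24 hours in culture cannot be told apart either.

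**Figure D2:**
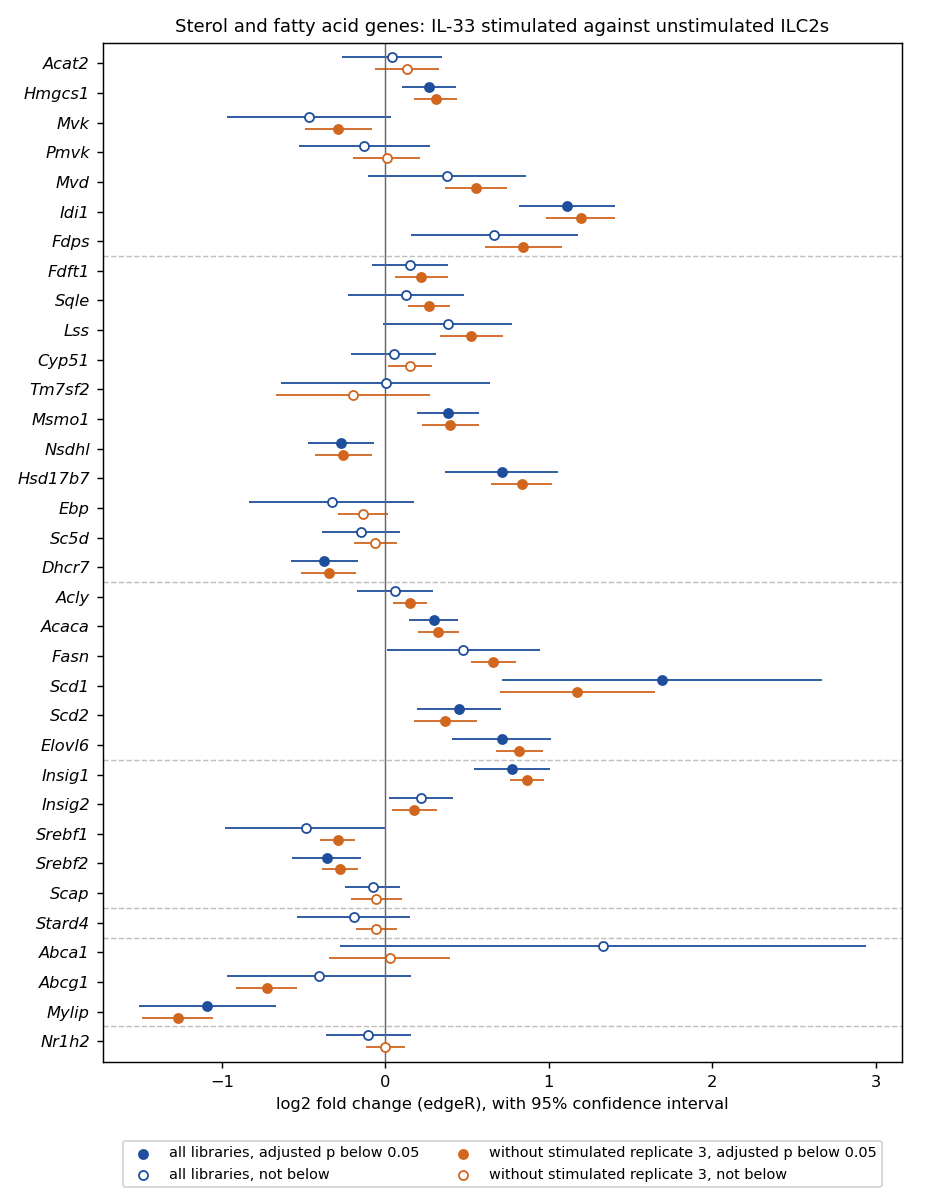
Log2 fold change of each of the 34 genes after IL-33, with its 95% confidence interval, from all 8 libraries (blue) and without stimulated replicate 3 (orange); filled points have an edgeR adjusted p below 0.05 and dashed lines divide the roles. Idi1, Scd1 and Insig1 lie furthest to the right among the filled points and Mylip furthest to the left, and the interval of Abca1, which spans -0.28 to 2.94 with all libraries, spans -0.34 to 0.40 without that one.

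In the mevalonate pathway, Idi1, the isomerase that interconverts the isoprenoid building blocks, rose the most. Idi1 stood at 33.1, 29.9, 31.9 and 31.6 CPM in the unstimulated libraries and at 64.4, 67.0, 56.0 and 85.5 CPM in the stimulated libraries, with no overlap. This gave a log2 fold change of 1.11 ± 0.13 (SE), edgeR adjusted p = 4.15e-04, and without stimulated replicate 3 it was 1.19 ± 0.095 (SE), adjusted p = 3.71e-06. Idi1 shares 23.6% of its 75-base stretches with other annotated loci, mostly unnamed gene models, among them Gm48574, which overlaps it, and how such reads were placed was not measured. Hmgcs1, the cytosolic HMG-CoA synthase at the head of the pathway, was at 101, 104, 94.3 and 108 CPM and then 120.4, 125, 112 and 132 CPM, again with no overlap (log2 fold change 0.27 ± 0.072 (SE), edgeR adjusted p = 0.0235). Without replicate 3 it was 0.31 ± 0.059 (SE), edgeR adjusted p = 0.00147. The call of Hmgcs1 was lost in 8 of 16 alternatives, among them library size alone, no filter, both TPM scales and leaving out 4 of the other libraries in turn, with adjusted p up to 0.65. Gm48342 overlaps 12.1% of its exon bases. On the TPM scale Hmgcs1 was at 76.7 ± 5.55 TPM before and 76.7 ± 0.739 TPM after IL-33 without replicate 3 (SD, n = 4 and 3). With all libraries, the median of all genes tested lay 0.31 lower in log2 on the TPM scale than in the count fit.

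Another 3 enzymes of this pathway were not called with all libraries and were called once stimulated replicate 3 was left out. Mvd, which decarboxylates the mevalonate pyrophosphate, was at 27.4, 28.1, 25.5 and 27.6 CPM in the unstimulated and 37.5, 36.7, 21.0 and 45.5 CPM in the stimulated libraries, where the low value of 21.0 CPM is replicate 3 (log2 fold change 0.37 ± 0.21 (SE), edgeR adjusted p = 0.199 with it and 0.55 ± 0.084 (SE), adjusted p = 3.14e-04 without). Fdps, which makes farnesyl pyrophosphate, was at 16.6, 13.9, 14.1 and 17.2 CPM and 30.8, 25.5, 14.7 and 27.0 CPM. Its log2 fold change was 0.67 ± 0.22 (SE), edgeR adjusted p = 0.0518 with all libraries and 0.84 ± 0.10 (SE), adjusted p = 7.77e-05 without replicate 3. The other 3 stimulated libraries lay above all unstimulated ones for both genes. Fdps also passed with replicate 3 kept in 5 other settings, by DESeq2 among them, and 26.7% of its exon bases overlap Gm43738, with 23.5% of its 75-base stretches shared, so in both comparisons its reads could be split. Mvk, the mevalonate kinase, went the other way. Its levels were 18.2, 19.6, 18.9 and 17.0 CPM before and 14.2, 14.5, 7.88 and 16.6 CPM after IL-33, below every unstimulated library in all 4, and it was called lower without replicate 3 (-0.29 ± 0.091 (SE), edgeR adjusted p = 0.021) but not with it (-0.47 ± 0.22 (SE), adjusted p = 0.133). Mvk was also called with library size alone and by limma on log2(TPM + 1) and log2(TPM + 0.1). Pmvk and Acat2, the kinase after Mvk and the thiolase before Hmgcs1, passed the threshold in neither fit, at 16.1, 14.1, 13.6 and 15.2 CPM and 15.6, 14.5, 9.46 and 14.5 CPM for Pmvk (-0.13 ± 0.17 (SE), edgeR adjusted p = 0.591) and at 21.7, 18.4, 19.9 and 18.4 CPM and 22.3, 19.9, 16.3 and 22.2 CPM for Acat2 (0.040 ± 0.13 (SE), adjusted p = 0.836). Without replicate 3 they were Pmvk (0.0066 ± 0.091 (SE), edgeR adjusted p = 0.957) and Acat2 (0.13 ± 0.087 (SE), adjusted p = 0.231).

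Among the sterol enzymes after farnesyl pyrophosphate, 2 of 11 rose and 2 fell, shares close to the 16.2% and 16.1% of all genes. Hsd17b7, a reductase that helps remove the methyl groups of lanosterol, was at 33.9, 28.6, 31.4 and 31.3 CPM in the unstimulated libraries and at 49.5, 57.0, 37.4 and 60.8 CPM in the stimulated ones (log2 fold change 0.71 ± 0.15 (SE), edgeR adjusted p = 0.00787). Msmo1, the monooxygenase of the same demethylation, was at 58.2, 52.9, 50.5 and 51.6 CPM and 65.3, 67.0, 67.4 and 78.4 CPM (0.38 ± 0.082 (SE), edgeR adjusted p = 0.00867). Neither gene overlapped between the groups. Nsdhl, the dehydrogenase that acts between Msmo1 and Hsd17b7, fell: it was at 36.6, 31.0, 32.4 and 35.0 CPM and then at 28.5, 29.7, 27.1 and 26.4 CPM (-0.27 ± 0.088 (SE), edgeR adjusted p = 0.0452). Dhcr7, the reductase of the last step to cholesterol in one branch of the pathway, was at 37.2, 33.2, 32.0 and 32.0 CPM and 25.2, 27.9, 24.5 and 26.0 CPM (-0.37 ± 0.088 (SE), edgeR adjusted p = 0.0133). Again the groups did not overlap, and Nsdhl moved opposite to the enzymes just before and after it. The call of Nsdhl was lost in 10 of 16 alternatives, with adjusted p up to 0.20, among them the replicate block, no filter and leaving out any library but stimulated replicate 3. Without replicate 3 the calls held for Hsd17b7 (0.84 ± 0.083 (SE), edgeR adjusted p = 1.73e-05), Msmo1 (0.40 ± 0.077 (SE), adjusted p = 0.00156), Nsdhl (-0.26 ± 0.077 (SE), adjusted p = 0.0165) and Dhcr7 (-0.35 ± 0.076 (SE), adjusted p = 0.003).

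The first enzymes committed to sterols rose in the count fit without stimulated replicate 3 and were not called with it. Lss, which closes the rings of lanosterol, was at 69.8, 69.3, 61.5 and 81.2 CPM in the unstimulated and 102, 95.2, 61.9 and 107 CPM in the stimulated libraries (0.38 ± 0.17 (SE), edgeR adjusted p = 0.125 with all libraries and 0.53 ± 0.086 (SE), adjusted p = 5.26e-04 without replicate 3). Sqle, the squalene epoxidase, was at 93.5, 83.1, 88.0 and 84.3 CPM and 103, 102, 65.1 and 111 CPM. The fitted log2 fold change of Sqle was 0.12 ± 0.15 (SE), edgeR adjusted p = 0.555 with all libraries and 0.27 ± 0.058 (SE), adjusted p = 0.00297 without replicate 3. Replicate 3 was the lowest stimulated library for both genes, under all unstimulated values for Sqle and near the lowest for Lss. Fdft1, the squalene synthase, was at 45.8, 42.0, 41.6 and 44.8 CPM and 46.8, 49.8, 41.0 and 55.7 CPM (without replicate 3, 0.22 ± 0.071 (SE), edgeR adjusted p = 0.0238), and 18.3% of its exon bases overlap Ctsb. On the TPM scale neither Sqle nor Fdft1 rose. Sqle was at 55.4, 52.5, 55.7 and 53.9 TPM and then 53.6, 52.0, 30.7 and 53.2 TPM. Fdft1 was at 35.7, 34.8, 34.6 and 37.6 TPM and then 32.1, 33.4, 25.4 and 35.1 TPM. Cyp51, Tm7sf2, Ebp and Sc5d passed the threshold in neither fit, with log2 fold changes from -0.33 (Ebp) to 0.051 (Cyp51) with all libraries. Vps51 overlaps 12.1% of the exon bases of Tm7sf2.

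In the count fit, 4 of 6 fatty acid synthesis genes were called higher with all libraries, against 16.2% of all genes. Without stimulated replicate 3 it was 6 of 6, against 27.5%, and no member lay below 0 in either fit. Scd1, which places the double bond of oleate, was at 2.85, 2.63, 4.67 and 2.55 CPM in the unstimulated libraries and at 6.97, 6.87, 19.9 and 7.50 CPM in the stimulated ones (log2 fold change 1.69 ± 0.42 (SE), edgeR adjusted p = 0.0172). Replicate 3 held the highest value, and without it the change was 1.17 ± 0.21 (SE), edgeR adjusted p = 9.83e-04. The groups did not overlap in either case. Scd2 was at 163, 171, 136 and 174 CPM and 222, 198, 257 and 202 CPM (0.45 ± 0.11 (SE), edgeR adjusted p = 0.0164), and Elovl6, the elongase of palmitate, was at 21.4, 21.4, 19.3 and 20.5 CPM and 36.0, 37.2, 25.7 and 36.2 CPM (0.71 ± 0.13 (SE), adjusted p = 0.00434). Acaca, the acetyl-CoA carboxylase that commits carbon to fatty acids, was at 77.5, 82.4, 71.9 and 78.3 CPM and 94.7, 99.5, 89.3 and 96.8 CPM (0.29 ± 0.064 (SE), edgeR adjusted p = 0.00946), and 26.8% of its 75-base stretches occur elsewhere in the annotation. Without replicate 3 the calls held for Scd2 (0.37 ± 0.085 (SE), edgeR adjusted p = 0.00454), Elovl6 (0.82 ± 0.065 (SE), adjusted p = 3.43e-06) and Acaca (0.32 ± 0.056 (SE), adjusted p = 7.52e-04).

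Fasn and Acly, at the centre of fatty acid synthesis, split the stimulated libraries. Fasn was at 507, 519.7, 445 and 509 CPM in the unstimulated libraries and at 769.9, 783, 408 and 794 CPM in the stimulated ones, so that 3 libraries stood above and replicate 3 below all the unstimulated values. Its log2 fold change was 0.48 ± 0.20 (SE), edgeR adjusted p = 0.11 with all libraries and 0.66 ± 0.061 (SE), adjusted p = 1.01e-05 without replicate 3. Acly was at 371, 367, 351 and 376 CPM and 401, 407, 305 and 411 CPM, with the same arrangement. Acly had a log2 fold change of 0.058 ± 0.10 (SE), edgeR adjusted p = 0.68 with all libraries and 0.15 ± 0.047 (SE), adjusted p = 0.0201 without replicate 3. The direction of Acly depended on the scale. It was at 231, 243, 233 and 253 TPM unstimulated and 220, 219, 151 and 208 TPM stimulated, every stimulated library below every unstimulated one. With all libraries, the median of all genes lay 0.31 lower in log2 on the TPM scale.

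Genes that control SREBP also moved apart. Insig1, an SREBP target that itself restrains SREBP, rose from 81.5, 77.2, 78.2 and 81.8 CPM to 146, 142, 109 and 148 CPM with no overlap (log2 fold change 0.78 ± 0.10 (SE), edgeR adjusted p = 7.60e-04), and without stimulated replicate 3 the change was 0.87 ± 0.047 (SE), adjusted p = 3.00e-07. Srebf2, which encodes the SREBP that chiefly drives sterol synthesis, fell from 427, 423, 404 and 405 CPM to 339, 352, 267 and 334 CPM, also with no overlap. This gave a log2 fold change of -0.36 ± 0.092 (SE), edgeR adjusted p = 0.0187 with all libraries and -0.28 ± 0.049 (SE), adjusted p = 8.37e-04 without replicate 3. The transcript of the regulator was thus lower in the same libraries in which 9 of its family's targets were higher. Srebf1, which encodes the SREBP linked more to fatty acids, was at 166, 171, 167 and 177 CPM and 141, 139.8, 67.7 and 136 CPM, with every stimulated library below every unstimulated one. Its log2 fold change was -0.49 ± 0.21 (SE), edgeR adjusted p = 0.116 with all libraries and -0.29 ± 0.047 (SE), adjusted p = 4.78e-04 without replicate 3. Insig2 was at 21.8, 22.6, 22.1 and 22.8 CPM and 25.1, 25.2, 28.2 and 25.3 CPM, all higher, and was called by edgeR without replicate 3 and not with it, while DESeq2 called it with all libraries. The fitted log2 fold change of Insig2 was 0.22 ± 0.084 (SE), edgeR adjusted p = 0.0856 with all libraries and 0.18 ± 0.062 (SE), adjusted p = 0.0336 without replicate 3. On the TPM scale Insig2 did not rise, at 20.6, 22.7, 22.4 and 23.3 TPM and then 20.9, 20.6, 21.2 and 19.4 TPM. Scap, the escort, which shares 13.2% of its exon bases with 5830462I19Rik, was at 85.1, 84.1, 77.0 and 78.2 CPM and 70.5, 83.0, 73.2 and 80.6 CPM, with overlap (-0.078 ± 0.074 (SE), edgeR adjusted p = 0.435). Nr1h2, which encodes LXRβ, was at 81.5, 79.0, 83.8 and 86.6 CPM and 86.6, 81.3, 59.8 and 79.9 CPM (-0.10 ± 0.11 (SE), edgeR adjusted p = 0.498), and Stard4, which carries cholesterol through the cytosol, had a log2 fold change of -0.20 ± 0.15 (SE), adjusted p = 0.339. Leaving out replicate 3 called none of these 3: Scap (-0.055 ± 0.069 (SE), edgeR adjusted p = 0.518), Nr1h2 (-0.0013 ± 0.053 (SE), adjusted p = 0.985) and Stard4 (-0.055 ± 0.056 (SE), adjusted p = 0.425).

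Of the 3 efflux genes, 1 was called lower with all libraries, against 16.1% of all genes, and 2 without stimulated replicate 3, against 29.7%. Mylip fell in all stimulated libraries, from 22.9, 20.8, 20.5 and 19.7 CPM to 8.94, 9.27, 13.5 and 7.86 CPM. Mylip had a log2 fold change of -1.09 ± 0.18 (SE), edgeR adjusted p = 0.00268, and without stimulated replicate 3, -1.27 ± 0.097 (SE), adjusted p = 2.84e-06. Abcg1, which exports cholesterol to HDL, was at 33.3, 33.9, 29.3 and 29.6 CPM in the unstimulated libraries and at 20.3, 19.0, 38.1 and 17.8 CPM in the stimulated ones. In 3 stimulated libraries Abcg1 lay under the unstimulated range, and in replicate 3 above it, so that the gene was called lower by edgeR without that library and not with it. Limma on both TPM scales called it with all libraries. This gave a log2 fold change of -0.41 ± 0.24 (SE), edgeR adjusted p = 0.225 with all libraries and -0.73 ± 0.083 (SE), adjusted p = 4.55e-05 without replicate 3. Abca1, the exporter to lipid-poor apolipoprotein, was at 5.52, 5.87, 7.31 and 4.57 CPM and then at 5.82, 6.16, 41.2 and 5.73 CPM. The high value again came from replicate 3 alone, and Abca1 passed the threshold in neither fit. Its log2 fold change was 1.33 ± 0.70 (SE), edgeR adjusted p = 0.174 with all libraries and 0.026 ± 0.17 (SE), adjusted p = 0.904 without replicate 3.

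Replicate 3 was thus the stimulated library with high Abca1, Abcg1 and Scd1 and low Fasn, Acly and Srebf1. In it the summed level of the 11 macrophage and myeloid markers was 299 CPM, with Fcgr1 and Ly6g at 0, inside the 163 to 463 CPM of the other 7 libraries of the experiment. The 10 alveolar epithelial and stromal markers summed to 427 CPM, with Sftpa1, Sftpb and Sftpc at 0, against 245 to 285 CPM in the other stimulated and 414 to 669 CPM in the unstimulated libraries. The part of these cells in the values of replicate 3 was not tested. The mean log2 CPM of the 26 SREBP targets exceeded that of the 3 efflux genes by 1.54, 1.48, 1.43 and 1.73 in the unstimulated libraries and by 2.45, 2.43, 0.71 and 2.63 in the stimulated ones. Without replicate 3, the distance was wider in every stimulated library than in any unstimulated one.

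**Figure D3:**
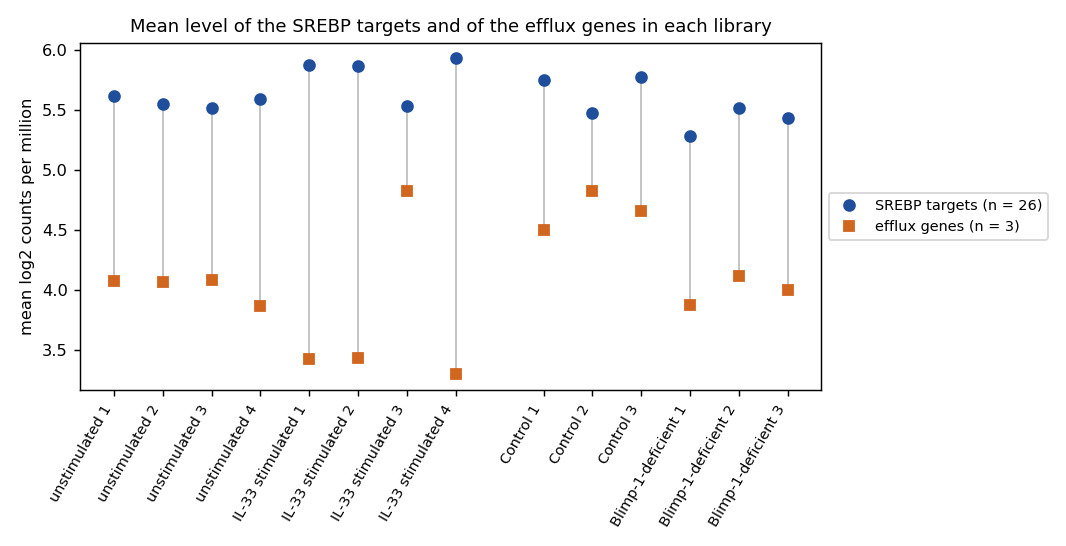
Mean log2 CPM of the 26 SREBP targets (circles) and of Abca1, Abcg1 and Mylip (squares) in each of the 14 libraries, joined by a line; the experiments were scaled separately. The distance is 2.43 to 2.63 in stimulated replicates 1, 2 and 4, 0.71 in stimulated replicate 3 and 1.43 to 1.73 in the unstimulated libraries.

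Lists of other genes of these pathways behaved as follows after IL-33. Among 17 further synthesis and SREBP target genes, 3 were called higher and 5 lower (5 and 6 without stimulated replicate 3). The shares of all genes were 16.2% and 16.1% (27.5% and 29.7%), so the higher calls were near that background. Tmem97, a membrane protein gene that SREBP induces, rose (1.33 ± 0.12 (SE), edgeR adjusted p = 1.28e-04) and so did Fads2, a fatty acid desaturase that stood at 30.7 CPM in replicate 3 and at 7.43 to 8.62 CPM in the other stimulated libraries (1.71 ± 0.50 (SE), adjusted p = 0.0313; without replicate 3, 0.94 ± 0.14 (SE), adjusted p = 3.03e-04). Lbr, a nuclear envelope protein with sterol reductase activity, fell (-1.02 ± 0.14 (SE), edgeR adjusted p = 0.00105), as did Fads1 (-0.59 ± 0.066 (SE), adjusted p = 3.93e-04) and Elovl5 (-0.57 ± 0.064 (SE), adjusted p = 3.79e-04), which desaturate and elongate polyunsaturated fatty acids, and Mid1ip1, which activates acetyl-CoA carboxylase (-0.26 ± 0.079 (SE), adjusted p = 0.0392). Of 7 further LXR target and export genes, 0 were higher and 2 lower (0 and 6 without replicate 3). Among the 6, Apoe had a log2 fold change of 2.44 ± 1.21 (SE) with all libraries and -0.53 ± 0.20 (SE) without replicate 3. Pltp likewise went from 1.74 ± 1.37 (SE) to -1.81 ± 0.52 (SE), so the direction of both turned with that library. Arl4c, a small GTPase gene that LXR induces, went from 229, 219, 198 and 234 CPM to 50.7, 57.2, 74.4 and 53.7 CPM (-1.90 ± 0.13 (SE), edgeR adjusted p = 3.92e-05), and Smpdl3a, a phosphodiesterase gene, fell from 53.7, 50.6, 56.0 and 45.6 CPM to 20.0, 20.7, 20.1 and 23.0 CPM (-1.30 ± 0.094 (SE), adjusted p = 5.27e-05). In neither gene did the groups overlap, replicate 3 included. Of 8 sterol storage and oxysterol genes, Cyp7b1, an oxysterol hydroxylase (1.50 ± 0.40 (SE), edgeR adjusted p = 0.0229), and Osbp, an oxysterol-binding protein gene (0.21 ± 0.057 (SE), adjusted p = 0.0225), were higher and Soat1, which esterifies cholesterol for storage, was lower (-0.76 ± 0.15 (SE), adjusted p = 0.0067). Without replicate 3, 4 were higher and 1 lower.

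The second comparison asked how loss of Blimp-1 alters the same genes in ILC2s activated for 72 hours. With all 6 libraries few members passed the threshold, and both that did fell. Of the 34 members, 0 were higher, against 0.450% of 17335 genes tested, and 2 were lower, against 0.306%. They were Lss and Abca1, so a sterol synthesis gene and a sterol export gene fell together. Without Control replicate 2, 17 members were lower, against 5.72% of 17968 genes, and 0 were higher, against 8.25%. That gain of calls rests on 1 library, and leaving out any of the other 5 gave 0 members called, in fits that called at most 7 genes higher and 2 lower over all genes. The groups did not overlap in CPM for 13 members that were lower, against 10.8% of genes tested, and for 1 that was higher, against 11.8%. The median log2 fold change of the SREBP targets was -0.26 beside -0.018 over all genes, with 24 of 26 below 0, and -0.35 beside 0.013 without Control replicate 2, with 26 of 26 below 0. By an unadjusted p below 0.05, 14 of the 34 members passed with all libraries, against 11.9% of all genes.

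**Figure D4:**
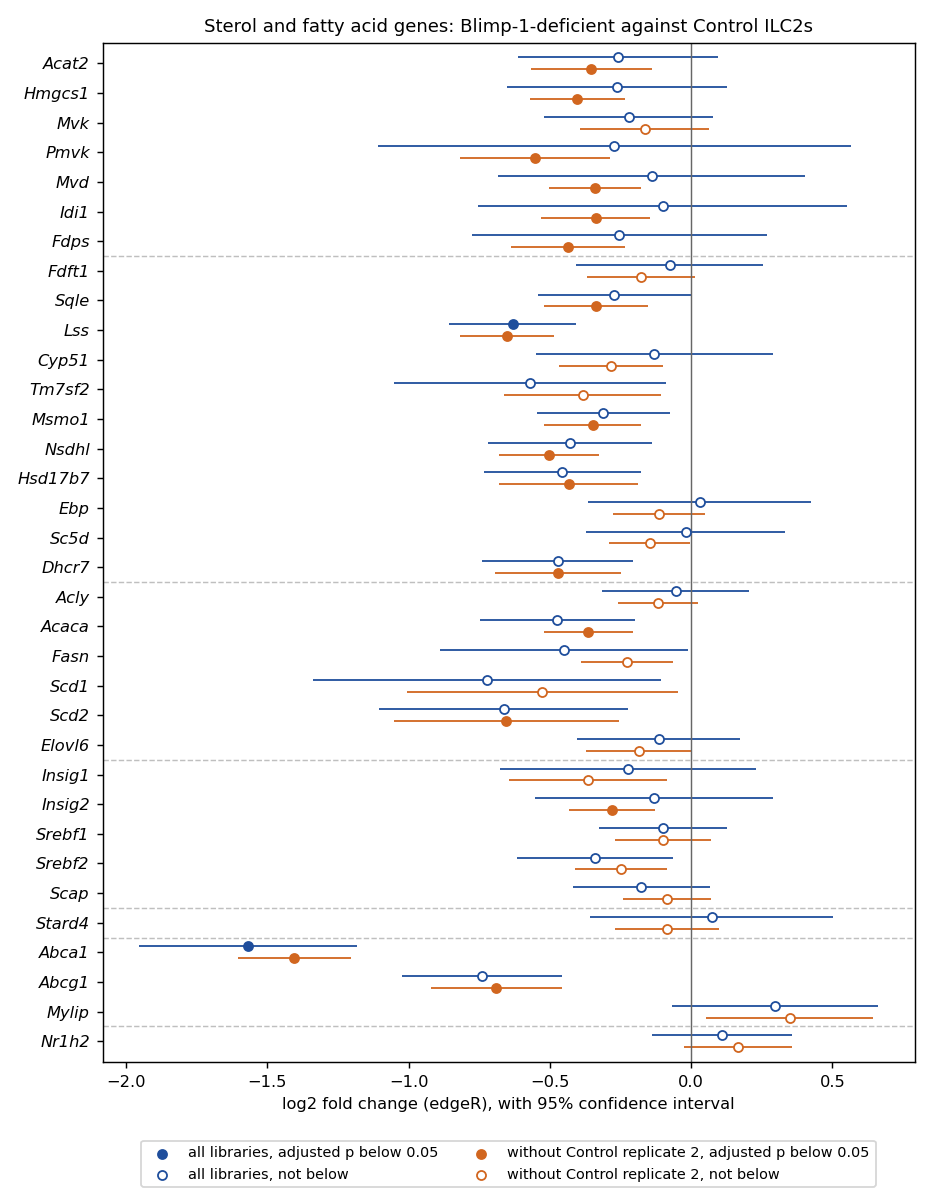
Log2 fold change of each of the 34 genes in Blimp-1-deficient against Control ILC2s, with its 95% confidence interval, from all 6 libraries (blue) and without Control replicate 2 (orange); filled points have an edgeR adjusted p below 0.05. Only Lss and Abca1 are filled in blue, 17 points are filled in orange, and nearly all points lie left of 0, apart from Mylip, Nr1h2, Ebp and Stard4 in blue.

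Abca1 had the largest fall of the 34 genes. It was at 31.2, 43.4 and 32.2 CPM in the Control libraries and at 11.1, 13.1 and 11.5 CPM in the Blimp-1-deficient ones. The fitted log2 fold change of Abca1 was -1.57 ± 0.16 (SE), edgeR adjusted p = 0.0239, and without Control replicate 2, -1.40 ± 0.085 (SE), adjusted p = 4.18e-04. The call of Abca1 was lost in 9 of 14 alternatives. Abcg1 was at 48.7, 58.2 and 57.6 CPM and 29.1, 34.2 and 35.0 CPM, and missed the threshold with all libraries, though DESeq2 and a mean count of at least 50 called it. Abcg1 had a log2 fold change of -0.74 ± 0.12 (SE), edgeR adjusted p = 0.0544 with all libraries and -0.69 ± 0.099 (SE), adjusted p = 0.0064 without replicate 2. In both genes all Blimp-1-deficient libraries lay under all Control libraries, with or without replicate 2. Mylip stood apart from them at 6.95, 8.28 and 8.02 CPM and 8.65, 10.6 and 9.13 CPM. The groups of Mylip did not overlap, with the higher values in the Blimp-1-deficient libraries, but it passed the threshold in neither fit. This gave a log2 fold change of 0.30 ± 0.15 (SE), edgeR adjusted p = 0.525 with all libraries and 0.35 ± 0.13 (SE), adjusted p = 0.108 without replicate 2.

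Lss was the synthesis gene that fell with all libraries in the fit, at 98.4, 97.2 and 108 CPM in the Control libraries and 60.5, 68.8 and 67.1 CPM in the Blimp-1-deficient ones. Its log2 fold change was -0.63 ± 0.093 (SE), edgeR adjusted p = 0.049, and without Control replicate 2, -0.65 ± 0.071 (SE), adjusted p = 0.00261. The call of Lss was lost in 10 of 14 alternatives, with edgeR adjusted p up to 0.91 with library size alone. Around Lss, 5 other sterol enzymes of 11 were lower without replicate 2, against 5.72% of all genes. Dhcr7 was at 33.5, 32.4 and 32.6 CPM and 21.3, 26.6 and 23.2 CPM. The fitted log2 fold change of Dhcr7 was -0.47 ± 0.11 (SE), edgeR adjusted p = 0.147 with all libraries and -0.47 ± 0.095 (SE), adjusted p = 0.0202 without replicate 2. Hsd17b7 was at 41.2, 39.9 and 36.2 CPM and 25.8, 32.0 and 27.7 CPM. Hsd17b7 had a log2 fold change of -0.46 ± 0.12 (SE), edgeR adjusted p = 0.18 with all libraries and -0.43 ± 0.10 (SE), adjusted p = 0.0367 without replicate 2. For these 3 genes Control replicate 2 lay close to the other Control libraries. Nsdhl was at 31.4, 24.4 and 28.5 CPM and 20.1, 22.1 and 20.8 CPM (without replicate 2, -0.50 ± 0.075 (SE), edgeR adjusted p = 0.00731), and Msmo1 at 56.8, 51.6 and 58.6 CPM and 41.6, 48.7 and 44.7 CPM (without replicate 2, -0.35 ± 0.073 (SE), adjusted p = 0.0237). Both kept their groups apart with all 6 libraries, in a fit that called neither: Nsdhl (-0.43 ± 0.12 (SE), edgeR adjusted p = 0.218) and Msmo1 (-0.31 ± 0.098 (SE), adjusted p = 0.269). Sqle was at 82.8, 68.9 and 81.2 CPM and 58.7, 70.5 and 64.4 CPM, where replicate 2 fell inside the Blimp-1-deficient range (without it, -0.34 ± 0.078 (SE), edgeR adjusted p = 0.0328, and with it -0.27 ± 0.11 (SE), adjusted p = 0.414). Fdft1, at 44.0, 32.9 and 42.9 CPM and 34.3, 40.8 and 39.6 CPM, was called in neither fit. This gave a log2 fold change of -0.076 ± 0.14 (SE), edgeR adjusted p = 0.89 with all libraries and -0.18 ± 0.081 (SE), adjusted p = 0.187 without replicate 2.

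Of the 7 mevalonate pathway genes, 6 were lower, against 5.72% of all genes, and each of them only in the fit without Control replicate 2, which held the lowest Control value of each. Hmgcs1 was at 93.6, 66.0 and 98.7 CPM in the Control and 65.9, 75.2 and 75.8 CPM in the Blimp-1-deficient libraries (-0.26 ± 0.16 (SE), edgeR adjusted p = 0.615 with all libraries; -0.40 ± 0.071 (SE), adjusted p = 0.0129 without replicate 2). Idi1 was at 32.5, 14.4 and 28.5 CPM and 22.5, 24.2 and 25.2 CPM. Its log2 fold change was -0.10 ± 0.27 (SE), edgeR adjusted p = 0.937 with all libraries and -0.34 ± 0.082 (SE), adjusted p = 0.0375 without replicate 2. Here replicate 2 lay below every Blimp-1-deficient library and the other 2 Control libraries above all of them. The same order held for Mvd, at 34.1, 19.0 and 35.3 CPM and 25.3, 28.7 and 27.7 CPM (-0.34 ± 0.069 (SE), edgeR adjusted p = 0.0212 without replicate 2), for Fdps, at 21.0, 12.2 and 21.4 CPM and 14.2, 16.9 and 15.6 CPM (-0.44 ± 0.085 (SE), adjusted p = 0.0185), and for Pmvk, at 12.3, 4.63 and 12.9 CPM and 8.05, 9.69 and 7.92 CPM (-0.55 ± 0.11 (SE), adjusted p = 0.0214). With all libraries these were Mvd (-0.14 ± 0.23 (SE), edgeR adjusted p = 0.872), Fdps (-0.25 ± 0.22 (SE), adjusted p = 0.724) and Pmvk (-0.27 ± 0.35 (SE), adjusted p = 0.825). Acat2 was at 17.9, 13.2 and 16.6 CPM and 12.4, 14.5 and 13.4 CPM (-0.35 ± 0.091 (SE), edgeR adjusted p = 0.0447 without replicate 2), and 33.9% of its 75-base stretches occur in other genes, among them Acat3. Mvk, at 13.8, 16.1 and 15.1 CPM and 11.7, 13.99 and 12.6 CPM, was called in neither fit. The fitted log2 fold change of Mvk was -0.22 ± 0.12 (SE), edgeR adjusted p = 0.576 with all libraries and -0.16 ± 0.097 (SE), adjusted p = 0.29 without replicate 2.

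In fatty acid synthesis all 6 genes had a log2 fold change below 0 in both fits, and 2 were called without Control replicate 2, against 5.72% of all genes lower. Scd2 was at 443, 508 and 573 CPM in the Control libraries and 259, 389 and 314 CPM in the Blimp-1-deficient ones. Scd2 had a log2 fold change of -0.66 ± 0.18 (SE), edgeR adjusted p = 0.213 with all libraries and -0.65 ± 0.17 (SE), adjusted p = 0.0456 without replicate 2. Acaca was at 70.8, 85.0 and 67.1 CPM and 49.8, 56.1 and 53.9 CPM. This gave a log2 fold change of -0.47 ± 0.11 (SE), edgeR adjusted p = 0.156 with all libraries and -0.36 ± 0.067 (SE), adjusted p = 0.0152 without replicate 2. Neither gene overlapped between the groups. Fasn, at 481, 689 and 449.7 CPM and 374, 403 and 408 CPM, and Scd1, at 24.9, 44.6 and 36.2 CPM and 15.8, 23.7 and 23.8 CPM, also showed no overlap but missed the threshold with all libraries, at Fasn (-0.45 ± 0.18 (SE), edgeR adjusted p = 0.407) and Scd1 (-0.72 ± 0.26 (SE), adjusted p = 0.332), and without replicate 2 (-0.23 ± 0.069 (SE), adjusted p = 0.0714 and -0.53 ± 0.20 (SE), adjusted p = 0.13 without replicate 2). Acly, at 288, 249 and 296 CPM and 255, 273 and 275 CPM, and Elovl6, at 31.7, 26.8 and 33.8 CPM and 27.3, 31.2 and 27.3 CPM, missed it too in both fits (-0.12 ± 0.060 (SE), edgeR adjusted p = 0.231 and -0.19 ± 0.079 (SE), adjusted p = 0.16 without replicate 2). Their falls were smaller with all libraries. The Control mean of Acly was 278 CPM with all libraries and 292 CPM without replicate 2, beside 268 CPM in the Blimp-1-deficient libraries. For Elovl6 these were 30.7, 32.7 and 28.6 CPM.

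Among the SREBP controls, edgeR called 0 with all libraries, against 0.306% of all genes lower, and Insig2 without Control replicate 2, against 5.72%. DESeq2, which called 1.83% of all genes lower with all libraries, also called Srebf2. Insig2 was at 24.8, 16.3 and 25.5 CPM and 19.7, 20.8 and 21.4 CPM (-0.13 ± 0.18 (SE), edgeR adjusted p = 0.836; -0.28 ± 0.065 (SE), adjusted p = 0.0323), with replicate 2 under all Blimp-1-deficient libraries. Insig1 was at 112, 86.2 and 138 CPM and 82.8, 105 and 102 CPM (-0.37 ± 0.12 (SE), edgeR adjusted p = 0.0844 without replicate 2). Its Control mean was 112 CPM with all libraries and 125 CPM without replicate 2, beside 96.7 CPM in the Blimp-1-deficient libraries. Srebf2 was at 267, 309 and 258 CPM and 204, 231 and 223 CPM (-0.34 with all libraries, and -0.25 ± 0.069 (SE), edgeR adjusted p = 0.0565 without replicate 2). The Srebf2 groups did not overlap, and those of Insig1 did through replicate 2. With all libraries, Srebf1 was at 147, 151 and 161 CPM and 133, 152 and 143 CPM (-0.10 ± 0.094 (SE), edgeR adjusted p = 0.748), Scap at 61.6, 69.7 and 55.9 CPM and 54.5, 56.5 and 53.9 CPM (-0.18 ± 0.10 (SE), adjusted p = 0.584), and Nr1h2 at 47.4, 58.2 and 57.4 CPM and 57.5, 58.1 and 59.7 CPM (0.11 ± 0.10 (SE), adjusted p = 0.751). Without replicate 2, the log2 fold changes of Srebf1 and Scap lay from -0.099 to -0.087 and that of Nr1h2 was 0.17, and none was called.

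**Figure D5:**
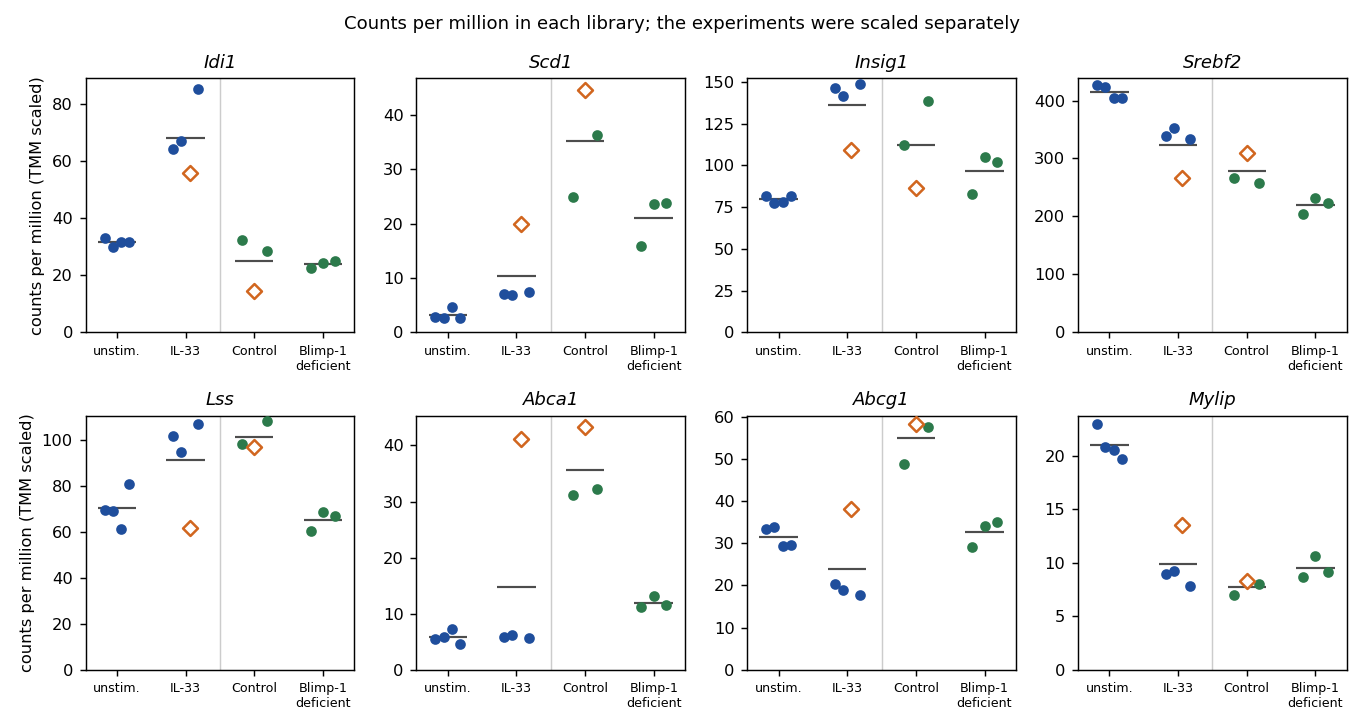
CPM of 8 of the genes in each library, with a line at each group's mean; open diamonds are stimulated replicate 3 and Control replicate 2, and each experiment was scaled on its own. Abca1 and Lss lie lower in all Blimp-1-deficient than in all Control libraries, Idi1 and Insig1 lie higher in all stimulated than in all unstimulated libraries, and the diamond stands at 41.2 CPM for Abca1 after IL-33.

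In the Blimp-1 experiment the medians of both the SREBP targets and the efflux genes were below 0, the latter at -0.74 with all libraries and -0.69 without Control replicate 2. The mean log2 CPM of the targets exceeded that of the efflux genes by 1.24, 0.65 and 1.11 in the Control libraries and by 1.41, 1.39 and 1.43 in the Blimp-1-deficient ones. Both sets had their lowest means in Blimp-1-deficient libraries, at 5.28 for the targets and 3.87 for the efflux genes. Control replicate 2, with 3562 CPM summed over 10 epithelial and stromal markers against 201 to 647 CPM in the other 5 libraries, had the smallest distance. Sftpa1, Sftpb, Sftpc and Lamp3 were at 0 in it, and the part of stromal cells in its values was not tested. The 11 myeloid markers summed to 129 CPM there and to 89.4 to 586 CPM in the others.

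Of other genes of the pathways, 17 synthesis and SREBP target genes gave 0 higher and 1 lower in Blimp-1-deficient cells (0 and 7 without Control replicate 2). For this and the next lists, the shares of all genes were 0.450% higher and 0.306% lower, and 8.25% and 5.72% without Control replicate 2. The gene that fell with all libraries was Acss2, which makes acetyl-CoA from acetate, at 19.6, 16.6 and 16.7 CPM in the Control libraries and 8.55, 7.39 and 7.01 CPM in the Blimp-1-deficient ones (log2 fold change -1.21 ± 0.14 (SE), edgeR adjusted p = 0.0294). Me1, the malic enzyme that supplies NADPH, missed the threshold with all libraries (-0.74 ± 0.14 (SE), edgeR adjusted p = 0.0866) and passed it without replicate 2 (-0.83 ± 0.098 (SE), adjusted p = 0.00342). The 7 LXR target and export genes gave 0 in either direction with all libraries. Leaving out replicate 2 gave 2 higher and 2 lower. Of the 2 higher, Apoe turned its direction with that library, at -1.24 ± 1.33 (SE) with it and 1.79 ± 0.45 (SE) without it. Smpdl3a was higher at 18.5, 12.9 and 20.4 CPM and 27.6, 28.3 and 32.9 CPM (0.62 ± 0.091 (SE), edgeR adjusted p = 0.00727 without replicate 2), and Arl4c was lower (-0.40 ± 0.090 (SE), adjusted p = 0.0288), so genes of this list were called in both directions. Of 8 sterol storage and oxysterol genes, 1 rose with all libraries: Gpr183, the receptor for dihydroxycholesterols, stood at 29.9, 24.6 and 28.6 CPM and 47.8, 44.1 and 48.2 CPM (0.74 ± 0.10 (SE), edgeR adjusted p = 0.0441). Without replicate 2, 2 were higher and 1 was lower.

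Markers of cell types were counted in the same fits, against 16.2% of all genes higher and 16.1% lower after IL-33 (27.5% and 29.7% without stimulated replicate 3). In the Blimp-1 comparison these shares were 0.450% and 0.306% (8.25% and 5.72% without Control replicate 2). Of 10 ILC2 markers, 2 were higher after IL-33 (the cytokine genes Il13 and Il5) and 7 lower, with or without stimulated replicate 3. In Blimp-1-deficient cells 0 of the 10 passed with all libraries. Leaving out Control replicate 2 gave 3 higher and 3 lower. Of 7 T cell markers, 3 were lower after IL-33 (4 without replicate 3), and their summed level went from 51.3 to 64.7 CPM unstimulated to 14.2 to 27.9 CPM stimulated. The B cell gene Cd79b was higher after IL-33, and the mast cell genes Kit and Cpa3 were lower. Among the alveolar epithelial and stromal markers 1 was higher and 3 were lower after IL-33 (1 and 4 without replicate 3), and among the myeloid markers 0 were called. In the Blimp-1 experiment, 0 markers of T cells, B cells, mast cells, myeloid cells or epithelium and stroma were called with all libraries, and without Control replicate 2 the myeloid list gave 2 higher and 1 lower and the epithelial and stromal list 1 higher. The part of such cells in the values of the 34 genes was not tested.

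Set side by side, and each without its library that stood apart, the comparisons shared no libraries. After IL-33, 17 members were higher, and 11 of those 17 were among the 17 that were lower without Blimp-1, while the other 6 were called in neither direction there. Of the 7 members lower after IL-33, 3 were also lower without Blimp-1, and 3 members were lower without Blimp-1 and not called after IL-33. None of the 34 was called higher without Blimp-1. With all libraries the overlap was 0, since Lss and Abca1, the 2 members lower without Blimp-1, were not called after IL-33. The overlap of 11 therefore rests on leaving out 1 library of each experiment, and is to be read against the 17 of all 34 members that were lower. No test was made of it. In level, Scd1 stood at 2.28 ± 0.744 TPM unstimulated and 4.11 ± 0.0761 TPM after 24 hours of IL-33 (SD, n = 4 and 3), and at 24.3 ± 7.03 TPM in Control and 17.4 ± 2.94 TPM in Blimp-1-deficient cells after 72 hours (SD, n = 2 and 3). Abca1 stood at 1.94 ± 0.393, 1.60 ± 0.107, 11.7 ± 0.588 and 4.61 ± 0.302 TPM in the same order, and Mylip at 22.5 ± 0.682, 7.54 ± 0.916, 8.88 ± 1.16 and 11.8 ± 0.916 TPM. The tables were normalized separately and the cultures differed in cytokines and time, so these levels were not compared by a test.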

How the data were processed

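Messenger RNA of sorted and cultured mouse lung ILC2s was sequenced from SMART-seq v4 and Nextera XT libraries, 8 for IL-33 and 6 for Blimp-1, from individual mice by the design text, although captions of the study describe sorting samples from pooled animals, so p-values measure the spread between these sorted samples. The authors deposited, for each experiment, raw read counts per gene and a TPM table normalized for gene length and depth by the authors. The submitters' processing notes name Bowtie2, Subread, DESeq2 and mm10, while the study's methods name HISAT2 as aligner. The strand setting of the counting is not given in the sources used here, and the 8 members with over 5% of exon bases or 75-base stretches in common with other loci are marked in the text.

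The 34 members and all other lists were chosen with earlier results of these data known. Counts were tested with edgeR 4.0.16 in R 4.3.3 (TMM scaling, filterByExpr, quasi-likelihood test, two-sided, Benjamini-Hochberg adjustment over all genes tested, threshold 0.05), with no covariate. The test was also run on counts simulated from its own fitted means and dispersions. No simulated library stood apart in content, so that run says nothing of how the test behaves with such a library. CPM values are TMM scaled within each experiment. Members were given in every library where they passed the threshold in any of these fits, or belonged to the efflux genes or to the regulators Srebf1, Srebf2, Scap, Insig1, Insig2 and Nr1h2. Alternatives were DESeq2 1.42.0, its size factors in edgeR, library size alone, no filter, a mean count of at least 50, limma 3.58.1 on log2(TPM + 1) and log2(TPM + 0.1) where the mean TPM reached 1, a block for replicate numbers, and fits lacking 1 library in turn. The 3 pathway lists and the lists of ILC2, T cell, B cell, myeloid, epithelial and stromal, and mast cell markers were described by counts of calls. Promoters were to be shown for the members with the largest rise and fall past the threshold after IL-33 among the SREBP targets and efflux genes. Scd1, the SREBP target with the largest rise, has no entry, so Idi1 is shown, and Hmgcs1, Insig1, Lss and Abca1 were added after their values were seen. Python 3.11, pandas 2.3.3 and matplotlib 3.10.9 were used for tables and plots.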

Additional observations from a re-analysis of the deposited data

Results flagged for a closer look

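Within the groups of 4 libraries, 68 sets of values, 1 for each of the 34 genes in each group, were searched for a library far from the other 3. In all, 10 were found. Chance gives about 1 in 20 for a single set. The sets share the same libraries and are not independent, so this rate gives no expected count for the 68. Of these, 8 came from stimulated replicate 3, which had 10470125 counts and 27.2 CPM of Csf1r. The summed level of the myeloid markers in that library, 299 CPM, lay inside the range of the other libraries. In it Abca1 (41.2 CPM), Abcg1 (38.1 CPM), Scd1 (19.9 CPM) and Insig2 (28.2 CPM) lay above the other stimulated libraries, and Fasn (408 CPM), Acly (305 CPM), Srebf1 (67.7 CPM) and Elovl6 (25.7 CPM) lay below them. The other 2 were Msmo1 in stimulated replicate 4, the highest of its group at 78.4 CPM, and Scd1 in unstimulated replicate 3, the highest of its group at 4.67 CPM.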

How the results depend on the processing

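Idi1, Insig1 and Mylip kept their call after IL-33 under all 16 alternatives, with adjusted p of at most 0.00485, 0.0267 and 0.0250. Of the other members called there, Nsdhl lost its call in 10 alternatives, Hmgcs1 in 8, Dhcr7, Acaca and Scd2 in 4, Scd1 and Msmo1 in 3, Hsd17b7 and Elovl6 in 2 and Srebf2 in 1. In the Blimp-1 comparison Lss lost its call in 10 of 14 and Abca1 in 9. In the IL-33 comparison, the 9 members called higher became 3 by limma on either TPM scale, 17 without stimulated replicate 3 and 18 by DESeq2 without it, with a range of 8 to 17 when single libraries were left out. The 4 called lower became 8 with library size alone, 1 without a filter, 12 by limma on either TPM scale and 7 by DESeq2 without stimulated replicate 3, and ranged from 2 to 7 when single libraries were left out, with 2 without unstimulated replicate 1 or 2 and 7 without stimulated replicate 3. All genes gave 5.91% higher and 6.51% lower without a filter, and 16.4% and 15.4% by DESeq2 without stimulated replicate 3. In the Blimp-1 comparison, the 2 members called lower became 8 by DESeq2, 0 with library size alone, 1 without a filter, 0 by limma on either TPM scale and 23 by DESeq2 without Control replicate 2. They ranged from 0 to 17 when single libraries were left out, with 17 without Control replicate 2 and 0 without any other library. Over all genes, 1.83% were lower by DESeq2, 0.421% with library size alone, 0.126% without a filter and 5.46% by DESeq2 without Control replicate 2. Limma called at most 1 gene higher and 1 lower of 13948, so its 0 says nothing particular of the members. The median log2 fold change of the efflux genes moved from -0.74 to -0.47 by limma on log2(TPM + 1), relative to a shift of 1.30 in the median of all genes. The DESeq2 fits without a library were added after the data were seen. Signs on the TPM scales were read after subtracting the shift in the median of all genes, in both comparisons. That shift was -0.31 for log2(TPM + 1) after IL-33. Without the subtraction, Acly, Fdft1, Sqle and Insig2, among others, did not rise in TPM after IL-33. With it, signs turned for Scap after IL-33 without unstimulated replicate 1 (0.0057, in a range of -0.12 to 0.0057 when single libraries were left out) and for Nr1h2 by DESeq2 without stimulated replicate 3 (0.033). In the Blimp-1 comparison they turned for Hmgcs1 (0.022), Mvd (0.12), Insig1 (0.15), Srebf1 (0.24) and Srebf2 (0.081) by limma on log2(TPM + 1) once the shift of 1.30 was subtracted, for Mvd without Control replicate 3 (0.0057, in a range of -0.34 to 0.0057) and for Idi1 without Control replicate 1 (0.13, in a range of -0.34 to 0.13). Signs also turned among members close to 0 that were called neither with nor without the library that stood apart. Without stimulated replicate 3, Pmvk went from -0.13 to 0.0066 and Tm7sf2 from 7.1e-04 to -0.20, and without Control replicate 2, Ebp went from 0.031 to -0.11 and Stard4 from 0.073 to -0.084. Under other alternatives the signs of these genes turned too, as did those of Acat2 and Cyp51 after IL-33 and of Fdft1, Cyp51, Sc5d and Acly in the Blimp-1 comparison. With all libraries none of these genes was called in the comparison in which its sign turned. The cause of these changes was not tested.

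With the replicate number as a replicate block, members called lower fell to 2 after IL-33 and to 0 in the Blimp-1 comparison, and 8 were called higher after IL-33. Over all genes the block called 11.7% higher and 12.3% lower after IL-33 and 0 of 17335 in the Blimp-1 comparison, where 1380 had an unadjusted p below 0.05, so the fall to 0 is not particular to the members. Deviations from the group means correlated between libraries of the same number at -0.14, 0.22, 0.28 and 0.18 in the IL-33 experiment and at -0.13, -0.13 and 0.12 in the Blimp-1 experiment, and not every library matched its own number best. The design text divides 8 individual mice between the groups of the IL-33 experiment, and not every pair correlated above 0.1, so the numbers were taken only as names. Depth limits the low genes most: in stimulated replicate 3 and Control replicate 2 a floor of 3 counts is a larger share of the total than in the deeper libraries.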
